A study of Mus musculus with 6 samples.

Results

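The transcripts described here encode 8 amino acid carriers that have been tied to growth and nutrient sensing of pancreatic alpha cells: Slc38a5, Slc38a1, Slc38a2, Slc38a3, Slc7a2, Slc7a5, Slc7a8 and Slc3a2. They were chosen by name from the 53670 genes of the deposited raw count table, and all 8 were among the 15915 genes tested. The counts come from RNA sequencing of isolated islets of 6-week-old mice, with 3 libraries labelled Paupar +/+ (WT) and 3 labelled Paupar -/- (KO). Paupar is a long noncoding RNA gene beside Pax6, and the comparison asks which islet transcripts differ when it is missing. The labels name no treatment, strain or sex, and whether each library came from an animal of its own is not said. The p-values therefore speak of the scatter among these libraries, part of which may be technical. Islets hold alpha cells beside beta, delta and non-endocrine cells, and in such bulk samples fewer cells of a type and less RNA per cell cannot be told apart.

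Alpha cells secrete glucagon, which drives the liver to take up and break down amino acids, and circulating amino acids in turn stimulate glucagon release and alpha cell growth. When glucagon signalling to the liver is blocked, amino acids build up in the blood, and in mice the glutamine carrier encoded by Slc38a5 is known to appear on alpha cells and to be needed for their full expansion. Members of the SLC38 family carry small neutral amino acids such as glutamine together with sodium. Members of the SLC7 family carry cationic amino acids alone or exchange large neutral ones, the latter only when joined to the heavy chain encoded by Slc3a2.

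Total counts ran from 25733194 to 27285009 per library, and the members' counts from 77 to 14158. Levels are CPM, counts scaled to a common library size with TMM factors. Before TMM scaling 3 counts, the limit for a gene with none, correspond to 0.110 to 0.117 CPM depending on the library, by counting error only. Paupar had 111 to 252 counts in the WT and 0 to 4 in the KO libraries. Xist, which silences the second X chromosome in females, reached 1120 and 862 counts in KO replicates 2 and 3 and at most 6 elsewhere. The Y-linked gene Ddx3y had 1316 to 1830 counts in the WT libraries and KO replicate 1, and 2 and 0 counts in KO replicates 2 and 3. By these genes 2 of 3 KO libraries and 0 of 3 WT libraries were female, so sex is partly confounded with genotype. Gcg, the glucagon gene, stood at 37594 ± 5554 CPM (SD, n = 3) in WT and 32932 ± 2452 in KO.

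Promoter windows of 4 of the 8 members were found in RefSeq (build GRCm38.p6), each of 300 bases, from 250 before to 50 after the annotated start. A pair of them is shown here, that of Slc38a5, the carrier most closely tied to alpha cell growth, and that of Slc3a2, the only member whose WT and KO libraries did not overlap. Capitals mark matches, on either strand, to CACGTG, the core of the E-box, and to GGGCGG, the GC box known to be bound by Sp factors.
Slc38a5, chrX:8271131-8271430, plus strand: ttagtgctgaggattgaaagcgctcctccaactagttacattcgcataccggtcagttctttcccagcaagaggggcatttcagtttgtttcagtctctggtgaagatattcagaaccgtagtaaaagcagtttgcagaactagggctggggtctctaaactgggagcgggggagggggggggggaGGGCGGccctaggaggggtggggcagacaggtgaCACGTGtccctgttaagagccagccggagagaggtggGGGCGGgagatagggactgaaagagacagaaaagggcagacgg
Slc3a2, chr19:8713848-8714147, minus strand: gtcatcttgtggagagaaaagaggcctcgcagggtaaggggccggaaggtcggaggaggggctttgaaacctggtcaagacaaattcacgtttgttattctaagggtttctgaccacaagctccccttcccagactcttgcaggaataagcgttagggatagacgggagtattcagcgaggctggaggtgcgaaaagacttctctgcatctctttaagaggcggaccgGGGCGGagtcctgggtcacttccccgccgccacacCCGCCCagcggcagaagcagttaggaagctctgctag

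CACGTG was found once, in the Slc38a5 window, starting 30 bases before the annotated start, and occurs in 7.15% of all 32851 promoter windows of that length. GGGCGG was found in all 4 members' windows (Slc38a5, Slc38a2, Slc7a8 and Slc3a2) and occurs in 35.7% of all windows. TGATGNAAN, the composite element through which ATF4 and its partners are known to act on amino acid response genes, was in none of the 4 and occurs in 3.95% of all windows. These matches describe letters in the windows and no binding was measured.

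None of the 8 carriers passed edgeR's quasi-likelihood test of KO against WT islets. At an adjusted p below 0.05, 0 of the 8 were lower and 0 higher, where 0.17% of all tested genes were called lower and 0% higher. No member reached an unadjusted p below 0.05 either, against 16.4% of all tested genes, and without WT replicate 3 there were 2 such members, Slc38a1 and Slc3a2. DESeq2 called 0 of the 8, against 6.06% of the genes to which it gave an adjusted p, and limma-voom called 0 as well. Fold changes were negative for 6 members and positive for 2, with a median of -0.067 on the log2 scale, beside 0.0023 for all tested genes. WT and KO libraries did not overlap for 1 of the 8 (12.5%), where 23.4% of all tested genes had groups apart, 12.1% lower and 11.3% higher in KO.

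**Figure D1:**
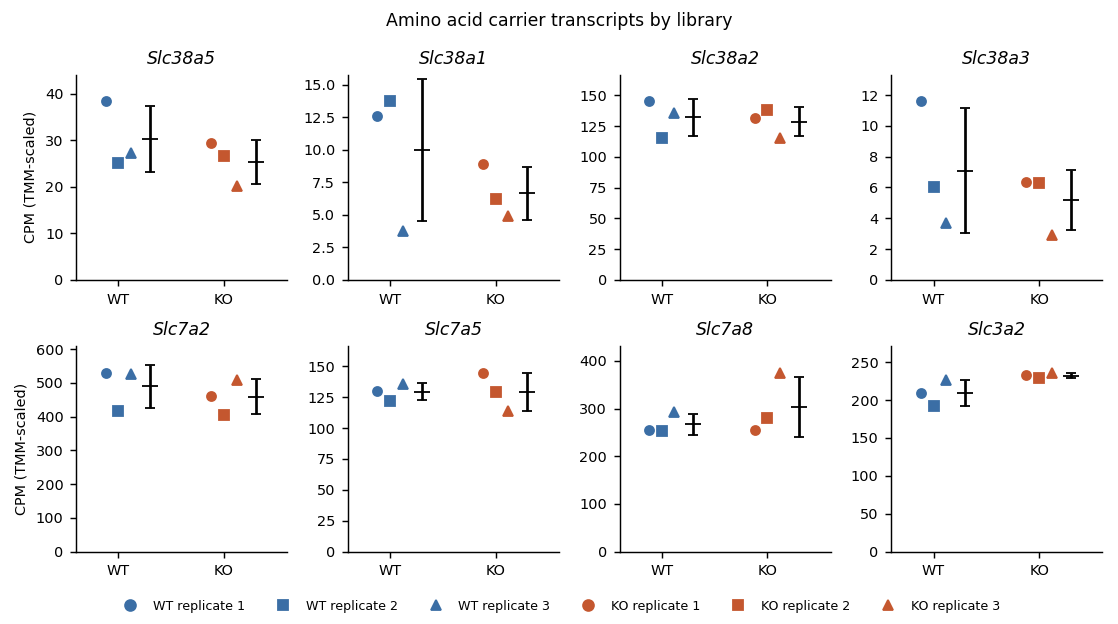
Level of each carrier (vertical axis, CPM scaled by TMM, starting at 0) in the 3 WT and 3 KO libraries; each point is a library and the bar is the mean ± SD of the group. For 7 of the 8 carriers the WT and KO points overlap, and for Slc3a2 all 3 KO points lie above the WT points.

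Compared per length of exon, Slc3a2 and Slc7a8 were the most abundant and Slc38a1 and Slc38a3 the least. Slc3a2 stood at 74.6 ± 5.76 CPM per kb (SD over all 6 libraries) and Slc7a8 at 70.7 ± 11.6, and these neighbours overlapped, with Slc3a2 above Slc7a8 in 5 of 6 libraries. Slc7a2 followed at 51.9 ± 6.0, Slc7a5 at 36.8 ± 3.03, Slc38a2 at 28.2 ± 2.69 and Slc38a5 at 12.4 ± 2.69 CPM per kb. The ranges of these neighbours did not overlap. Slc38a3 at 1.81 ± 0.900 and Slc38a1 at 0.994 ± 0.491 CPM per kb came last, and their ranges overlapped although Slc38a3 was the higher in all 6 libraries. Per-length levels rest on the merged exons of all annotated transcripts, so a gene read mostly through a short transcript is understated.

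Slc38a5 encodes a sodium-coupled carrier of glutamine, asparagine, histidine and serine (chromosome X, 7848259 to 7857305 in mm9). WT replicates 1 to 3 held 38.3, 25.1 and 27.3 CPM of it and KO replicates 1 to 3 held 29.3, 26.5 and 20.1 CPM. WT replicate 1 was the highest and KO replicate 3 the lowest, and the other 4 libraries lay close together with the genotypes mixed. The log2 fold change was -0.26 (SE 0.20, 95% interval -0.73 to 0.21, edgeR adjusted p = 0.569), so levels in KO from 0.603-fold to 1.16-fold of WT fell within the interval. Without WT replicate 1 the value was -0.04. Slc38a5 is X-linked, and with a term for sex, so that the genotype difference rests on KO replicate 1, it was -0.05 (SE 0.28).

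Slc38a3 encodes a related carrier of glutamine and histidine, best known from liver, kidney and brain (chromosome 9, 107552970 to 107569705). It stood at 11.6, 6.02 and 3.67 CPM in WT replicates 1 to 3 and at 6.36, 6.30 and 2.90 CPM in KO replicates 1 to 3. Within each genotype replicate 3 was the lowest, and the WT range covered most of the KO range. The log2 fold change of -0.45 (SE 0.47, 95% interval -1.56 to 0.66, edgeR adjusted p = 0.675) was 0.11 without WT replicate 1. The highest library held 3.99 times the level of the lowest, the widest spread among the 8 carriers.

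Slc38a1 and Slc38a2 encode carriers of alanine, glutamine and other small neutral amino acids, and Slc38a2 is known to be induced when amino acids run short. Both genes lie on chromosome 15, Slc38a1 at 96401849 to 96473344 and Slc38a2 at 96517825 to 96530129. Slc38a1 stood at 12.6, 13.7 and 3.74 CPM in WT and 8.91, 6.19 and 4.90 CPM in KO. WT replicate 3 was the lowest of all 6 libraries and WT replicates 1 and 2 the highest. Its log2 fold change was -0.59 (SE 0.47, 95% interval -1.70 to 0.53, edgeR adjusted p = 0.584), and it was -0.97 without WT replicate 3 (adjusted p = 0.119) and -0.29 without WT replicate 2. With the level of the alpha cell list as a covariate it was -1.23 (edgeR adjusted p = 0.616).

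Slc38a2 was steadier, at 145.2, 115.1 and 135.9 CPM in WT and 132.0, 138.3 and 115.4 CPM in KO. The genotypes covered almost the same range. Its log2 fold change was -0.04 (SE 0.11, edgeR adjusted p = 0.894), and the 95% interval of -0.30 to 0.22 holds KO levels of 0.813-fold to 1.17-fold of WT.

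Slc7a2 encodes a sodium-independent carrier of arginine, lysine and ornithine (chromosome 8, 41947750 to 42007662), and gene-level counts do not tell its protein isoforms apart. It had the highest count of the 8, at 528.9, 415.6 and 524.7 CPM in WT and 461.9, 405.6 and 508.4 CPM in KO. In each genotype replicate 2 was the lowest library, and the groups overlapped. The log2 fold change was -0.09 (SE 0.13, 95% interval -0.40 to 0.21, edgeR adjusted p = 0.762).

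Slc3a2 encodes the heavy chain, also called CD98, that brings the exchangers LAT1 and LAT2 to the cell surface (chromosome 19, 8781372 to 8797859). Its level was 208.7, 191.7 and 226.3 CPM in WT and 232.8, 228.6 and 235.7 CPM in KO. All 3 KO libraries were above all 3 WT libraries, and WT replicate 3 lay just below the lowest KO library. At 0.15 on the log2 scale (SE 0.08, 95% interval -0.04 to 0.34) the difference missed the threshold in edgeR (adjusted p = 0.396), and an excess in KO of more than 1.27-fold lay outside the interval. Across the alternatives the value ran from 0.09 to 0.23 with adjusted p from 0.199 to 0.734.

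Slc7a5 encodes LAT1, which exchanges leucine and other large neutral amino acids and feeds the growth kinase complex mTORC1 (chromosome 8, 124405052 to 124431594). It was at 129.7, 122.2 and 136.1 CPM in WT and 144.6, 128.9 and 113.9 CPM in KO. The 3 WT libraries lay inside the KO range. The log2 fold change was -0.002 (SE 0.10, 95% interval -0.24 to 0.23, edgeR adjusted p = 0.995).

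Slc7a8 encodes LAT2, an exchanger of small and large neutral amino acids (chromosome 14, 55341053 to 55400723). It was at 255.5, 253.2 and 292.2 CPM in WT and 255.1, 279.9 and 374.5 CPM in KO. KO replicate 3 stood above the other 5 libraries, among which the genotypes were mixed. The log2 fold change was 0.18 (SE 0.15, 95% interval -0.18 to 0.54, edgeR adjusted p = 0.594), and without KO replicate 3 it was 0.0028.

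**Figure D2:**
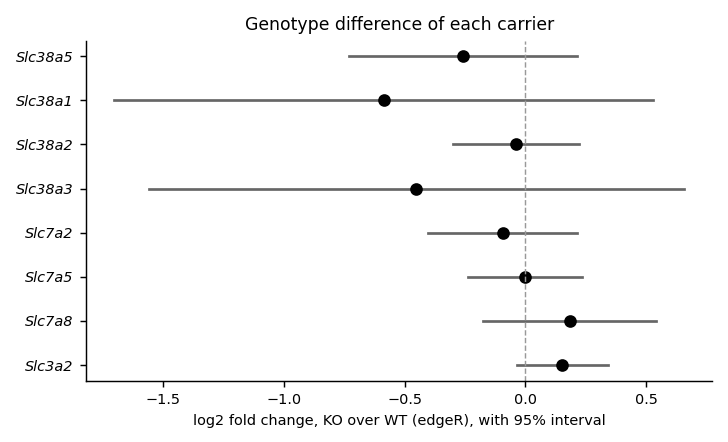
Log2 fold change of each carrier, KO over WT, from edgeR (points), with its 95% interval (lines) and a dashed line at 0. All 8 intervals include 0, and those of Slc38a1 and Slc38a3 are the widest.

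Ratios between carriers do not depend on how libraries are scaled, and none of the 5 ratios compared between partners or relatives separated the genotypes. The log2 ratio of Slc7a5 to its heavy chain Slc3a2 was -0.69 ± 0.04 (SD, n = 3) in WT against -0.85 ± 0.18 in KO (two-sided exact permutation p = 0.2, where 3 against 3 cannot go below 0.1). For Slc7a8 to Slc3a2 it was 0.35 ± 0.06 in WT against 0.36 ± 0.28 in KO, with an exact permutation p of 0.9. The ratio of the exchangers themselves, Slc7a5 to Slc7a8, was -1.04 ± 0.06 in WT against -1.22 ± 0.46 in KO, with an exact permutation p of 0.7, and the KO spread came largely from replicate 3, at -1.72. The ratios of Slc38a5 to Slc38a3 (exact permutation p = 0.7) and of Slc38a1 to Slc38a2 (exact permutation p = 0.6) overlapped between genotypes as well. With Benjamini-Hochberg adjustment over all 13 ratios computed here, the smallest adjusted p was 0.325.

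Levels were also set against the mean log2 level of 19 other alpha cell genes, and 4 carriers then had separate groups. The share of all tested genes that would separate on this measure was not computed, so the 4 have no background beside them. Slc3a2 was 2.20 ± 0.05 above the list mean in WT and 2.58 ± 0.15 in KO, Slc7a8 was 2.55 ± 0.09 and 2.94 ± 0.34, Slc7a5 was 1.51 ± 0.03 and 1.73 ± 0.22, and Slc38a2 was 1.53 ± 0.10 and 1.72 ± 0.11. For these 4 every KO library was above every WT library (exact permutation p = 0.1, the smallest possible, adjusted p = 0.325). For Slc38a2 the groups barely parted, with WT replicate 1 at 1.6369 and KO replicate 3 at 1.6373. Slc38a5 overlapped between genotypes, at -0.61 ± 0.29 in WT against -0.64 ± 0.28 in KO, with an exact permutation p of 0.9. The yardstick itself differed: 14 of the 20 alpha cell genes, Slc38a5 included, had negative fold changes, with a median of -0.18, and the groups did not overlap for 5 lower and 2 higher genes (35%, beside 23.4% of all tested genes). The lower ones included the transcription factor gene Irx2 (-0.64, SE 0.11, edgeR adjusted p = 0.0974). The 2 higher ones, named here after their values were seen, were Fxyd5 and Tmem27. Fxyd5 was at 0.50 (SE 0.19, edgeR adjusted p = 0.276) and Tmem27 at 0.24 (SE 0.10, edgeR adjusted p = 0.298). None of the 20 was called by edgeR or limma-voom. DESeq2 called 5 lower, beside 6.06% of all genes to which it gave an adjusted p, in either direction. An unadjusted p below 0.05 was found for 6 lower and 2 higher ones, beside 16.4% of all tested genes.

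**Figure D3:**
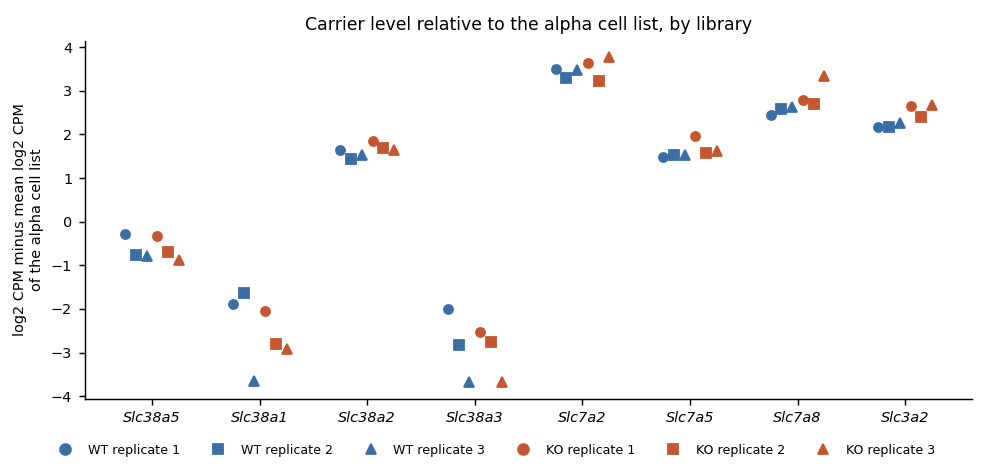
Level of each carrier relative to 19 other alpha cell genes (vertical axis, log2 CPM minus the mean log2 CPM of those genes) in each library. KO points of Slc3a2, Slc7a8, Slc7a5 and Slc38a2 lie above the WT points, and those of the other 4 carriers overlap them. For Slc38a2 the lowest KO point (1.6373) lies barely above the highest WT point (1.6369).

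The order of the libraries by Slc38a1 and Slc38a3, the carriers with the widest spread, was compared with that by each marker list. Slc38a1 ordered the 6 libraries exactly as the summed level of 14 lymphocyte markers did, in all 15 pairs of libraries. That sum was 287.0, 308.6 and 51.6 CPM in WT replicates 1 to 3 and 191.4, 119.1 and 114.6 CPM in KO, with none of the 14 at 0 throughout. The lymphocyte list was added after Slc38a1, the genes most like it and the levels of lymphocyte genes had been seen, so this match is not independent evidence. With its level as a covariate the log2 fold change of Slc38a1 was -0.21 (SE 0.13, edgeR adjusted p = 0.479), where the standard error without the covariate was 0.47. Slc38a1 also followed the acinar sum in 12 of 15 pairs, the macrophage sum in 11 and the alpha cell sum in 10. Most of the alpha cell sum was Gcg, 43955 of 47721 CPM in WT replicate 1. With the acinar covariate its log2 fold change was -0.14 (SE 0.37, edgeR adjusted p = 0.910).

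Slc38a3 ordered the libraries as the summed level of 25 acinar cell genes, most of which encode digestive enzymes, in 14 of 15 pairs. It did so as the lymphocyte sum in 11, the macrophage sum in 11 and the alpha cell sum in 10. That acinar sum was 94332, 50964 and 30011 CPM in WT replicates 1 to 3 and 58405, 41069 and 22152 CPM in KO, with none of the 25 at 0 throughout. With this level as a covariate the log2 fold change of Slc38a3 was 0.08 (SE 0.19, edgeR adjusted p = 0.886) and that of Slc38a5 was -0.09 (SE 0.13, edgeR adjusted p = 0.797). Slc38a5 followed the acinar sum in 12 of 15 pairs and the sum of the other 19 alpha cell genes in 8 of 15. The alpha cell sum is mostly Gcg, unlike the mean log2 level of the same genes used above, which weighs each gene equally. These are orders over 6 libraries of 2 genotypes that share tissue and depth, and they are given as a description.

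**Figure D4:**
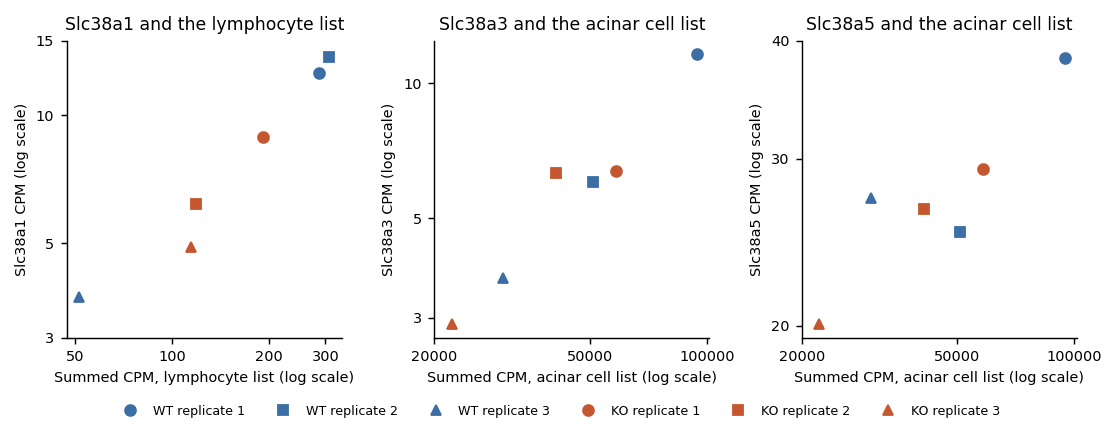
Level of Slc38a1 against the summed level of the lymphocyte list, and of Slc38a3 and Slc38a5 against that of the acinar cell list (all axes CPM, log scale), one point per library. Slc38a1 climbs with the lymphocyte sum through all 6 libraries, and Slc38a3 and Slc38a5 are highest in WT replicate 1 and lowest in KO replicate 3, the ends of the acinar range.

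The order of the libraries by Slc3a2 matched that of 14 endothelial markers in 13 of 15 pairs. Their sum was 458 to 577 CPM in WT and 643 to 677 CPM in KO, with Cdh5, the vascular cadherin gene, at a log2 fold change of 0.45 (SE 0.11, edgeR adjusted p = 0.150). It matched the beta cell, the duct cell and the stellate cell and pericyte lists in 11 of 15 pairs each. The beta cell sum was 221229 to 240498 CPM in WT and 286139 to 291997 in KO. For Slc3a2 and for the endothelial and beta cell sums, every KO library was above every WT library. Each pair of a WT and a KO library therefore matched for these 2 lists, whatever the order within a genotype. The part of these cell types in the Slc3a2 difference was not tested. Of the remaining lists, delta cell markers summed to 3460 to 5106 CPM in WT and 2916 to 4927 in KO, duct cell markers to 583 to 610 and 587 to 639, macrophage markers to 205 to 247 and 162 to 302, and stellate cell and pericyte markers to 329 to 504 and 412 to 531. No gene of these lists was at 0 in all libraries. Median log2 fold changes were 0.26 for beta cell, -0.13 for delta cell, -0.52 for acinar cell, -0.27 for duct cell, 0.36 for endothelial, 0.27 for macrophage, 0.34 for stellate cell and pericyte, and -0.31 for lymphocyte markers. The acinar median was 0.053 without WT replicate 1, the lymphocyte median 0.040 without WT replicate 2, the delta cell median 0.0039 without KO replicate 1, and the beta cell median -0.022 with the sex covariate. In edgeR and limma-voom, 0 genes of these lists were called. At an unadjusted p below 0.05 there were 3 of 20 beta, 2 of 8 delta, 1 of 25 acinar and 3 of 12 duct genes. There were also 7 of 14 endothelial, 2 of 12 stellate, 0 of 11 macrophage and 0 of 14 lymphocyte genes. Over all tested genes the share was 16.4%. The beta, endothelial and stellate ones were higher in KO, the acinar and duct ones lower, and the delta ones 1 of each. DESeq2 called 3 beta, 2 delta and 3 endothelial genes and 0 in the other lists. It called 6.06% of all genes to which it gave an adjusted p.

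Genes with the most similar profile were sought among 10405 others with a mean of at least 5 CPM, by the root mean square difference of mean-centred log2 levels over the 6 libraries. For Slc38a1 they were Cxcr4, a chemokine receptor gene (0.095), and Rassf2 (0.096). For Slc38a3 they were Tff2, a secreted trefoil peptide gene (0.085), and Pnliprp1, a pancreatic lipase-related gene of the acinar list (0.11). Those distances were small beside the members' own spread, 0.64 for Slc38a1 and 0.58 for Slc38a3. For Slc38a5, with a spread of 0.27, they were Zbtb18 (0.087), a zinc finger repressor gene, and Tubb3 (0.089), a neuronal-type tubulin gene.

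The other carriers varied little, and their nearest genes lay at small distances for that reason too. For Slc3a2 these were Zmynd11 (0.011) and Tsg101 (0.018), for Slc7a5 Fibp (0.023) and Pus1 (0.034), and for Slc7a2 Dync1i1 (0.024) and Gprasp1 (0.041). For Slc38a2 they were Spryd4 (0.026) and Desi2 (0.028), and for Slc7a8 Rhobtb3 (0.031) and A2ml1 (0.049).

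Other amino acid carriers, some of them lysosomal, were examined beside the 8. Of 33 listed, 29 were tested, and 0 were called in edgeR and 0 in limma-voom. DESeq2 called 1, beside 6.06% of all genes to which it gave an adjusted p. An unadjusted p below 0.05 was found for 1 of the 29, against 16.4% of all tested genes. Their median log2 fold change was -0.12, with 19 negative and 10 positive. For 4 (13.8%) all KO libraries lay below all WT libraries, near the 12.1% of all tested genes. For 0 all KO libraries lay above, beside 11.3% of all tested genes. Slc36a1, a proton-coupled carrier of small amino acids found on lysosomes, was at 62.5, 68.3 and 66.1 CPM in WT and 50.5, 49.0 and 54.0 CPM in KO. Its groups did not overlap, and the log2 fold change, -0.36 (SE 0.07), missed the threshold in edgeR (adjusted p = 0.112) and passed in DESeq2 (adjusted p = 0.00395). Slc38a10 was at -0.14 (SE 0.07), Slc38a9, the lysosomal arginine sensor, at -0.46 (SE 0.26), and Slc43a2, a carrier of large neutral amino acids, at -0.10 (SE 0.07). With offsets for exonic length and GC content the median of this list was -0.0031.

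Genes of amino acid sensing through mTORC1, which sits downstream of several of these carriers, had fold changes of both signs, 18 negative and 18 positive. All 36 were tested, and 0 were called in edgeR. The median was -0.0022, and 8 lower and 6 higher genes had groups that did not overlap (38.9%, beside 23.4% of all tested genes). Unadjusted p-values were below 0.05 for 8 lower genes and 2 higher ones out of the 36 (16.4% over all tested genes). DESeq2 called 1 lower (6.06% over all genes to which it gave an adjusted p) and limma-voom called 0. Gatsl2, the table's name for Castor2, whose product is related to the arginine sensor CASTOR1, was at 340.8, 302.1 and 334.3 CPM in WT and 212.2, 263.6 and 201.2 CPM in KO. The KO libraries were all lower, by 0.53 on the log2 scale (SE 0.12), which missed the threshold in edgeR (adjusted p = 0.141) and passed in DESeq2 (adjusted p = 0.0016).

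Also among the genes with the smallest p in this list, Depdc5, a subunit of the GATOR1 complex, was at -0.41 (SE 0.12) and Tsc1, a subunit of the tuberous sclerosis complex, at -0.28 (SE 0.09). Of genes named here after their values were seen, Kptn, a subunit of the inhibitory KICSTOR complex, was at 0.33, and Rptor, the mTORC1 scaffold, at -0.22. Lamtor4, a subunit of the lysosomal Ragulator scaffold named here after its value was seen, was at 0.23 (SE 0.09). In edgeR the adjusted p of Depdc5, Tsc1 and Lamtor4 ran from 0.197 to 0.257, and that of Kptn was 0.345 and of Rptor 0.259.

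The amino acid stress response, the programme through which the kinase GCN2 and the factor ATF4 raise carriers and synthesis enzymes, had 0 of 25 genes called in edgeR. An unadjusted p below 0.05 was found for 1 of them, against 16.4% of all tested genes. DESeq2 called 1 lower (6.06% over all genes to which it gave an adjusted p), limma-voom called 0, and the median was -0.058. Eif2ak4, which encodes GCN2, was at 26.4, 27.5 and 24.5 CPM in WT and 17.3, 16.8 and 17.05 CPM in KO. The groups did not overlap, with a log2 fold change of -0.62 (SE 0.08) that lay just outside the threshold in edgeR (adjusted p = 0.0559) and inside it in DESeq2 (adjusted p = 9.12e-06). Vldlr was at -0.35 (SE 0.16), Eif2s1, the translation factor subunit that GCN2 phosphorylates, at 0.18 (SE 0.09), and Atf3 at 1.18 (SE 0.70, edgeR adjusted p = 0.453). Atf3 was scarce, at 0.64, 0.30 and 1.19 CPM in WT and 3.16, 0.80 and 0.87 CPM in KO. Its groups overlapped, and KO replicate 1 was the highest library. Atf4 itself was at 0.15 (SE 0.12) and its target Asns, asparagine synthetase, at 0.03 (SE 0.17), both named here after their values were seen.

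Genes of amino acid metabolism had a median of 0.0092 over 26 tested members, with 0 called in edgeR. Of these, 1 lower gene and 2 higher ones had an unadjusted p under 0.05, against 16.4% of all tested genes. The calls were 1 higher in DESeq2 (6.06% over all genes to which it gave an adjusted p) and 0 in limma-voom. Gpt, an alanine transaminase gene, was at 5.27, 5.73 and 4.93 CPM in WT and 3.43, 3.09 and 3.47 CPM in KO. All 3 KO libraries were lower, and the log2 value of -0.67 (SE 0.16) missed the threshold in edgeR (adjusted p = 0.149). Dld, a subunit shared by several dehydrogenase complexes, was at 0.25 (SE 0.07, edgeR adjusted p = 0.171, DESeq2 adjusted p = 0.0448), Got2, the mitochondrial aspartate transaminase gene, at 0.24 (SE 0.08), and Glul, glutamine synthetase, at 0.39 (SE 0.17).

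**Figure D5:**
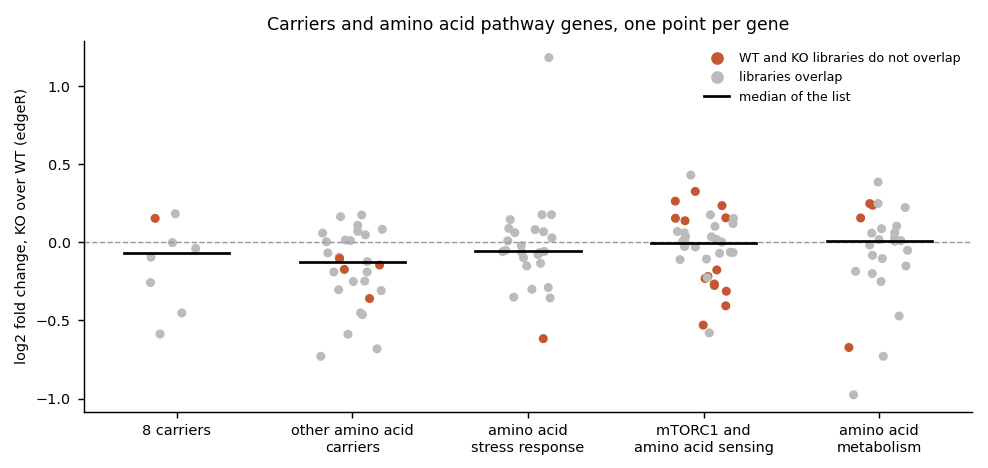
Log2 fold change, KO over WT, of every tested gene in 5 lists (one point per gene, spread sideways for legibility); coloured points are genes whose WT and KO libraries do not overlap and black lines are list medians. Medians run from -0.12 for the other carriers to 0.0092 for amino acid metabolism, and coloured points are most frequent in the mTORC1 list.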

How the data were processed

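The deposited table holds raw counts, whole numbers of reads per gene that the authors had not normalized, in 1 column per library, matched to samples by name (0 columns left over). Per the submitters' processing notes, the tools were CASAVA 1.8.2, HISAT2 2.1.0 and HTSeq, with DESeq2, and the build was mm9. Annotation, counting options and strand were not given in the sources used here, so antisense or overlapping reads cannot be separated. The test used edgeR 4.0.16 (R 4.3.3): filterByExpr, TMM factors and the quasi-likelihood F-test of KO against WT, with Benjamini-Hochberg adjustment over 15915 genes and a threshold of 0.05. Intervals use the fit's degrees of freedom. The script was tested on simulated data. GENCODE vM1 (mm9) gave lengths of merged exons and their GC content, with a symbol match for 85.4% of tested genes. Log ratios added 0.5 counts, and profiles for likeness and list means added 0.5 CPM.

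Alternatives were DESeq2 size factors, no filter, a filter of 1 CPM in 3 or more libraries, limma-voom (limma 3.58.1), DESeq2 1.42.0, a replicate block, acinar, alpha and sex covariates, length and GC offsets, 5 counts added to ratios, and leaving out each library. A lymphocyte covariate was added after seeing the data. Members, lists and tests were chosen with earlier results of these data known. Text names the 8 members, from each pathway or marker list genes among the 4 with the smallest p at a mean of at least 1 CPM or the first 2 markers, and the 2 nearest genes per member, predicted genes left out. Some genes this rule names are not reported here. Castor1, Castor2 and Amy2a5 were matched through RefSeq synonyms. Figures used Python 3.11.15 and matplotlib 3.10.9.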

Additional observations from a re-analysis of the deposited data

How the results depend on the processing

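No member was called under any of the 17 alternatives, with adjusted p for single members from 0.119 upward, and the median of the 8 ran from -0.16 (without WT replicate 2) to 0.023 (without WT replicate 1). Of 136 member values under these alternatives, 14 changed sign. With the acinar covariate Slc38a2 was at 0.0084, Slc38a3 at 0.085 and Slc7a5 at 0.030. With the alpha covariate Slc38a2 was at 0.19. Slc7a5 was at 0.0098 with no filter, 0.16 with the sex covariate and 0.085 with the length and GC offsets, and Slc7a8 was at -0.066 with the sex covariate. Leaving out 1 library gave -0.13 to 0.040 for Slc38a2, -0.76 to 0.11 for Slc38a3 and -0.091 to 0.081 for Slc7a5. It gave the following ranges of log2 ratios, KO minus WT: -0.14 to 0.13 for Slc7a8 to Slc3a2, -0.37 to 0.076 for Slc7a5 to Slc7a8, -0.12 to 0.46 for Slc38a5 to Slc38a3 and -1.01 to 0.046 for Slc38a1 to Slc38a2. Relative to the alpha list it gave -0.18 to 0.14 for Slc38a5, -0.82 to 0.19 for Slc38a1 and -0.58 to 0.26 for Slc38a3. The cause was not tested. Medians of lists moved too. For the other carriers the median was -0.051 with the acinar covariate, -0.050 with the sex covariate and -0.0031 with the offsets, and for the mTORC1 list it was 0.047 with the offsets. With the sex covariate it was 0.25 for the stress response, -0.40 for alpha, -0.022 for beta, -0.54 for delta and -0.097 for duct cells. With the alpha covariate it was -0.16 for metabolism, 0.45 for delta and -0.51 for duct cells. For duct cells it was also -0.12 with the acinar covariate and -0.035 with at least 1 CPM in 3 libraries. Without single libraries medians ran from -0.18 to -0.077 for the other carriers, -0.043 to 0.045 for the mTORC1 list, -0.16 to 0.12 for the stress response, -0.15 to 0.078 for metabolism, -0.32 to -0.11 for duct cells, -0.89 to 0.053 for acinar cells, -0.71 to 0.040 for lymphocytes and -0.26 to 0.0039 for delta cells.

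Over all genes the main test called 27 lower and 0 higher. DESeq2 called 437 lower and 209 higher. Limma-voom, the acinar, alpha and sex covariates and the length and GC offsets called 0 lower, with 1363 to 2599 genes at an unadjusted p below 0.05, and the lymphocyte covariate, chosen after seeing the data, called 10. Leaving out 1 library gave 0 to 80 lower and 0 to 9 higher, with 80 without WT replicate 3, 4 without KO replicate 1 and 0 without any of the other 4. The replicate block called 0 genes lower (2559 genes at an unadjusted p below 0.05) and gave -0.25 for Slc38a5 and 0.16 for Slc3a2. Same-numbered libraries correlated at 0.21, 0.066 and 0.081 in their deviations from group means, and WT replicate 2 correlated best with KO replicate 3 (0.088), so the numbers are not taken as pairs. Every member had at least 77 counts in each library.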
